A study of Mus musculus with 13 samples.

Results

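Toll-like receptors (TLRs) and the proteins that escort them, help them bind ligand or carry their signal were followed in Lin- cKit+ bone marrow cells of 4 mouse genotypes. The list holds 10 genes: Tlr1, Tlr2, Tlr4, Tlr6, Tlr7, Tlr9, Unc93b1, Cd14, Ly96 and Myd88. They were taken by name, and each was found through its Ensembl identifier and GENCODE M21 symbol among the 54838 genes of the count table. All 10 passed the filter on low counts, which kept 17795 genes for testing.

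TLRs are receptors of innate immunity that recognise microbial lipids, proteins and nucleic acids. Tlr1, Tlr2, Tlr4 and Tlr6 act at the cell surface, whereas Tlr7 and Tlr9 are brought to endosomes by the chaperone Unc93b1, and most of them signal through the adaptor Myd88 to NF-kB. Hematopoietic stem and progenitor cells (HSPCs) are known to carry TLRs and to make more myeloid cells when these are stimulated.

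Total RNA came from 50000 sorted Lin- cKit+ bone marrow cells of each mouse, the sorted fraction in which HSPCs lie among cells without lineage antigens, and was sequenced from stranded libraries for low input. Control mice (n = 3) carried Mx1-Cre alone, p53mut mice (n = 3) Mx1-Cre with p53 R172H/+, NrasG12D mice (n = 3) Mx1-Cre with a mutant Nras allele, and NPmut mice (n = 4) Mx1-Cre; p53 R172H/+; Nras G12D/+. The genotype label of the NrasG12D mice reads Nras G21D/+, while their titles read NrasG12D. Mx1-Cre is under an interferon-responsive promoter that is not limited to blood cells, and the mutant alleles lie at their own loci behind a stop that Cre removes. Mice of the first 3 groups were age-matched and had 3 injections of 100 μg pI:pC, an RNA mimic that induces interferon and is itself a Tlr3 ligand, from about 6 weeks of age. NPmut mice had no treatment and were moribund, so in every comparison with NPmut the genotype, the injections and the stage of disease cannot be told apart.

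Library totals ran from 12576174 to 29124022 counts, with group medians of 16891496 for control, 13637926 for p53mut, 15445138 for NrasG12D and 19315282 for NPmut. Levels are given as RPKM, which is reads per kb of exon scaled to a common library total, so that genes can be compared with each other. Differences between groups are log2 fold changes from edgeR on TMM-scaled counts, with p adjusted over all 17795 genes. A gene is said to be called where the adjusted p was under 0.05 and the fold change at least 2. NPmut 2 had the largest total and stood apart from its group, with a chi-square per gene of 88.3, 88 and 104 against the other NPmut libraries, which gave 22.4 to 32.8 among themselves. This measure, which grows with depth, was 12.1 to 18.2 within the other groups. In bulk RNA, fewer cells of a type and less RNA per cell cannot be told apart.

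The 10 genes spanned a wide range of levels. In control libraries Unc93b1 was at 36.2 ± 2.47 RPKM (SD, n = 3) and Myd88 at 10.3 ± 0.388 RPKM. Tlr2 followed at 1.87 ± 0.316 RPKM and Tlr4 at 1.61 ± 0.253 RPKM. The first 2 stood clear of the rest, while Tlr2 and Tlr4 did not differ beyond their spread. Cd14 at 1.10 ± 0.174, Ly96 at 1.09 ± 0.609, Tlr6 at 0.852 ± 0.146, Tlr9 at 0.634 ± 0.141 and Tlr7 at 0.559 ± 0.127 RPKM formed a run in which neighbours overlapped in mean ± SD. Tlr1 was lowest at 0.265 ± 0.0684 RPKM, from 10 to 19 counts a library. In NPmut libraries (n = 4) the order was Unc93b1 at 104 ± 19.3, Myd88 at 11.9 ± 2.12, Tlr2 at 7.01 ± 3.76, Cd14 at 6.12 ± 4.72 and Tlr9 at 2.00 ± 0.960 RPKM. Tlr4 at 1.19 ± 0.159, Tlr7 at 1.18 ± 0.768, Tlr6 at 1.15 ± 0.178 and Ly96 at 1.08 ± 0.295 RPKM followed, and Tlr1 was again lowest at 0.772 ± 0.177 RPKM. Below Unc93b1, neighbours in this order overlapped in mean ± SD. The plot of levels by library shows all 10 genes on their own scales.

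**Figure D1:**
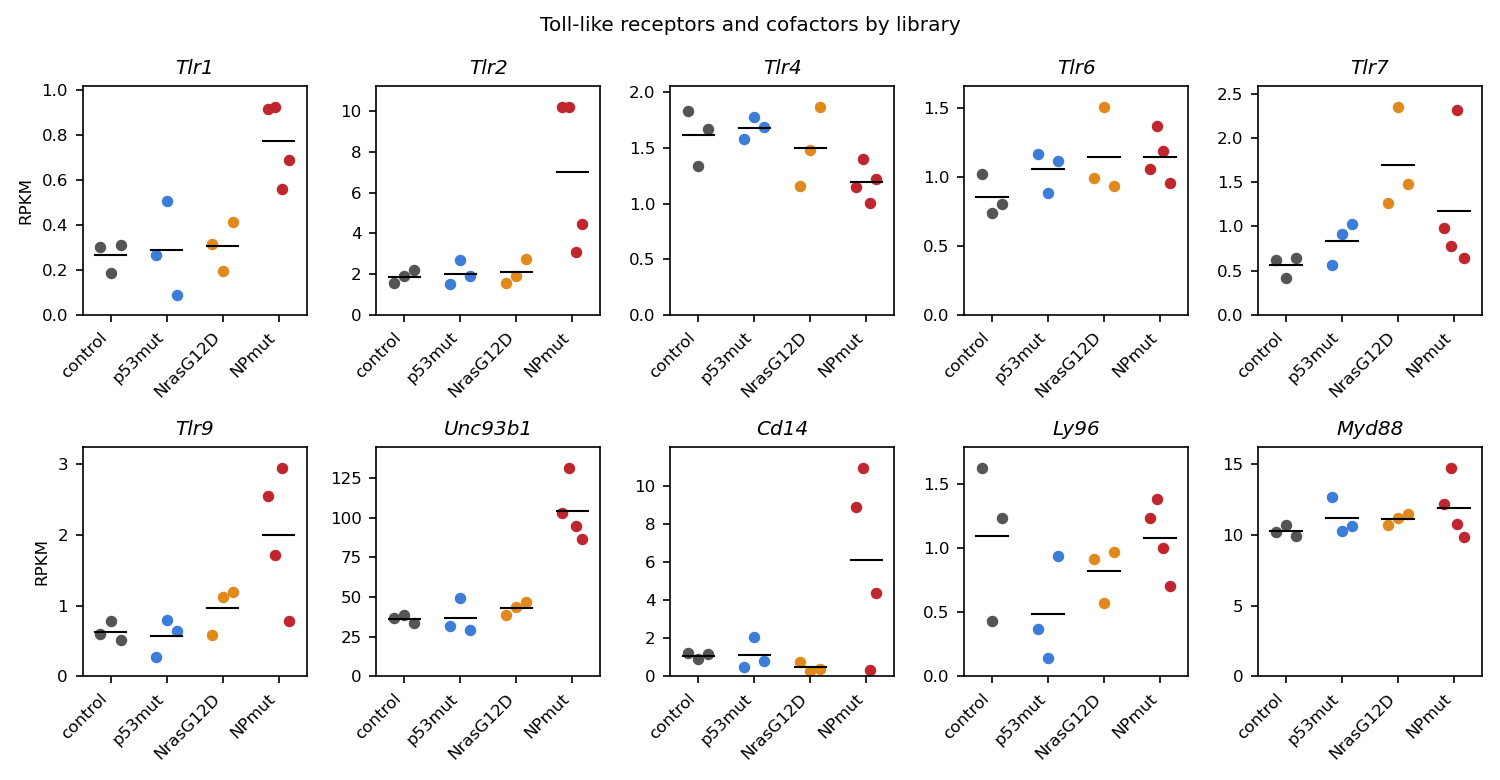
Level of each of the 10 genes in RPKM (vertical axes, linear from 0) in the 13 libraries, grouped by genotype, where each point is a mouse and each bar a group mean. Unc93b1 lies at 86.8 to 131 RPKM in NPmut libraries and at 29.0 to 49.5 RPKM in all others, whereas the NPmut points of Cd14 run from 0.340 to 10.9 RPKM.

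NPmut against control cells, the comparison of compound mutant marrow with marrow that carries only Cre, gave 4 called genes of 10: Tlr1, Tlr2, Tlr9 and Unc93b1, which all rose. Of all 17795 genes tested, 2.27% were called higher and 3.71% lower. The median log2 fold change of the 10 genes was 1.41, against 0.01 over all genes. By edgeR, 0 of the 10 were called lower. An unadjusted p under 0.05 was found for 7 of them, beside 25.6% of all genes in either direction, and a call by DESeq2 for 6, beside 2.8% of all genes called higher, and all of these lay on the higher side. In 6 genes (Tlr1, Tlr2, Tlr6, Tlr7, Tlr9 and Unc93b1) every NPmut library lay above every control library after TMM scaling, which held for 10.2% of all genes. Of the 10 fold changes 9 were above 0, of which that of Ly96 turned to -0.01 when libraries were scaled by their totals, a scaling that moved the median of all genes by -0.12. The count of 4 fell to 2 without control 1 or without control 3, was 3 without control 2, NPmut 1 or NPmut 2, and was 5 without NPmut 3 or NPmut 4. These fits hold fewer samples, and the share of all genes called in each is not given here. Without NPmut 2, which had the highest Unc93b1 and Cd14, Unc93b1 was at 1.47 (adjusted p = 0.000343), Tlr2 at 1.75 (0.0121), Tlr9 at 1.80 (0.0209), Tlr1 at 1.52 (0.0683) and Cd14 at 2.13 (0.164). The comparisons of p53mut, NrasG12D and NPmut with control share the same 3 control libraries. The plot of fold changes against control sets these comparisons side by side.

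**Figure D2:**
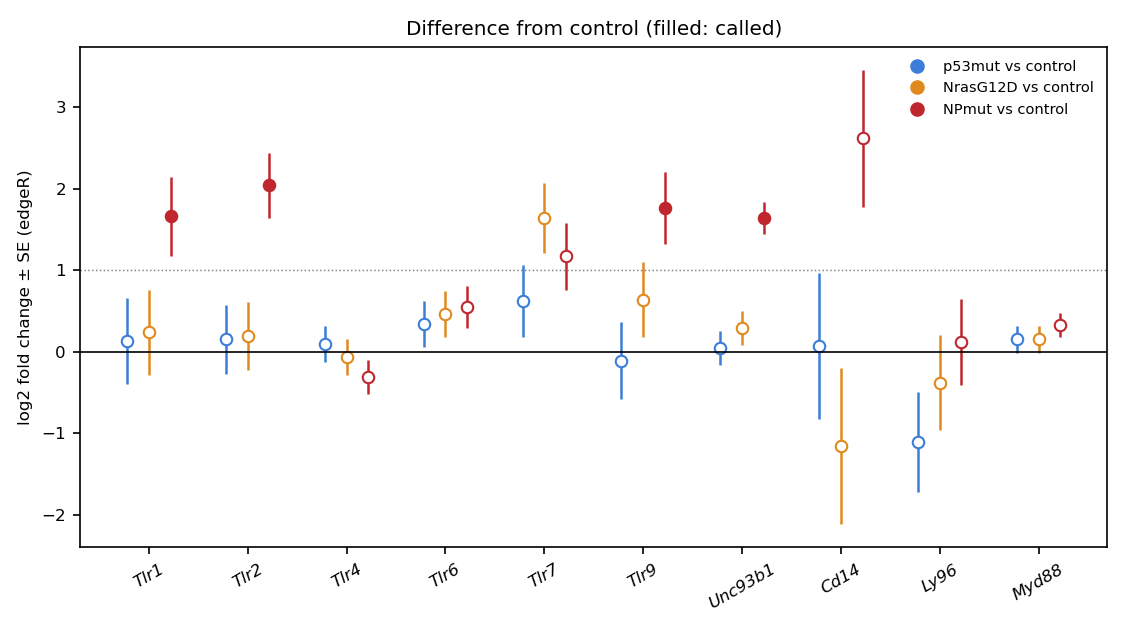
Difference from control on the log2 scale (vertical axis) for each of the 10 genes in p53mut, NrasG12D and NPmut cells, with bars of 1 standard error from edgeR, filled points for called genes and a dotted line at 1. Filled points occur only for NPmut, at 1.66 for Tlr1, 2.04 for Tlr2, 1.76 for Tlr9 and 1.64 for Unc93b1.

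Among the receptors of the cell surface, Tlr2 recognises bacterial lipoproteins together with either Tlr1 or Tlr6. Tlr2 (ENSMUSG00000027995, chr3:83836272-83841767 of GRCm38, minus strand) was at 1.55, 1.89 and 2.18 RPKM in control, 1.52, 2.68 and 1.89 in p53mut, 1.59, 1.93 and 2.73 in NrasG12D, and 10.2, 10.2, 3.11 and 4.48 in NPmut libraries. NPmut 1 and NPmut 2 were far above the rest, and even the lowest NPmut library exceeded all 9 others. Its log2 fold change between NPmut and control was 2.04 (SE 0.40, edgeR adjusted p = 0.00619, higher in 4 of 4 mice), and the call was lost with background reads as a covariate (adjusted p = 0.13). Tlr1 (ENSMUSG00000044827, chr5:64924679-64933563, minus strand) was at 0.301, 0.187 and 0.309 RPKM in control, 0.268, 0.504 and 0.0894 in p53mut, 0.315, 0.194 and 0.413 in NrasG12D, and 0.913, 0.924, 0.561 and 0.689 in NPmut libraries. All NPmut libraries were again above all others, at 29 to 90 counts each. Its log2 fold change was 1.66 (SE 0.48, edgeR adjusted p = 0.0394), and the call was lost without control 1 (adjusted p = 0.0898), control 2 (0.133), control 3 (0.104), NPmut 1 (0.0792) or NPmut 2 (0.0683), with scaling by library totals (0.0516) and with background reads as a covariate (0.143). Over all alternatives the adjusted p of Tlr1 ran from 0.00811 to 0.143.

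Tlr6, the other partner of Tlr2 (ENSMUSG00000051498, chr5:64952031-64960097, minus strand), did not share this pattern on the level scale. It was at 1.02, 0.737 and 0.803 RPKM in control, 1.17, 0.885 and 1.12 in p53mut, 0.991, 1.51 and 0.937 in NrasG12D, and 1.06, 1.37, 1.19 and 0.960 in NPmut libraries. In RPKM the groups overlapped widely, with the highest value in an NrasG12D mouse. The log2 fold change of NPmut from control was 0.55 (SE 0.26, edgeR adjusted p = 0.199). Tlr1 and Tlr6 are neighbours on chromosome 5 and share sequence: 13.6% of the stretches of 50 bases in Tlr1 exons occur in Tlr6 as well, and 12.3% of those of Tlr6 in Tlr1. Counting all genes, 15.4% of the Tlr1 stretches are shared, with 307 other genes. How the authors counted reads that fit more than 1 place is not given in the sources used here.

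Promoters of 3 of the 4 genes called in NPmut against control were taken from the RefSeq table of promoters (GRCm38.p6, 250 bases before to 50 after the RefSeq start), which had entries for 5 of the 10 genes: Tlr1, Tlr2, Tlr6, Tlr9 and Myd88. Entries were missing for Tlr4, Tlr7, Unc93b1, Cd14 and Ly96. Both strands were searched for the core of the myeloid factor PU.1, GAGGAA, and for the NF-kB consensus, a pair of motifs chosen after the expression values had been seen and which did not overlap each other in these windows. The Tlr2 promoter (chr3:83841559-83841858, minus strand) held the NF-kB consensus at 2 places, the Tlr1 promoter (chr5:64933509-64933808, minus strand) the PU.1 core at 1, and the Tlr9 promoter (chr9:106222348-106222647, plus strand) the PU.1 core at 2, on opposite strands. Neither motif was in all 3. Capitals mark these matches, and each sequence is written 5′ to 3′ on the strand of its gene.
Tlr2: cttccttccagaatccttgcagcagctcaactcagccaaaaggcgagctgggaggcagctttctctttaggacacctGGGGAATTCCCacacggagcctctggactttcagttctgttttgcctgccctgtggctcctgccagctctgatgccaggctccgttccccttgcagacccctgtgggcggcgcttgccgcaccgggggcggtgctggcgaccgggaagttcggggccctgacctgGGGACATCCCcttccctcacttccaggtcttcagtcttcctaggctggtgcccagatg
Tlr1: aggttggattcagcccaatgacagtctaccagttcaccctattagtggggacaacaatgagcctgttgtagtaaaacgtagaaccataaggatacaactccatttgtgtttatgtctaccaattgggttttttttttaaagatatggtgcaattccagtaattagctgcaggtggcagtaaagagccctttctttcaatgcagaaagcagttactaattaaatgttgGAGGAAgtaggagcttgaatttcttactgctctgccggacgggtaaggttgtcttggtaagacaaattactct
Tlr9: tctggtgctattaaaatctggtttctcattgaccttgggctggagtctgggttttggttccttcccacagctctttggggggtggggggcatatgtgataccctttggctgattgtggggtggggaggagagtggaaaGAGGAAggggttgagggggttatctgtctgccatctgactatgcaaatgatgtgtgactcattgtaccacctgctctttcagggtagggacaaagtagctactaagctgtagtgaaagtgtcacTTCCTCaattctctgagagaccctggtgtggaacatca
The places in Tlr2 hold 5 overlapping matches in all, counting both strands, from -173 to -163 and from -8 to 1, with the start of the RefSeq entry counted as 0. That start lies 159 bases inside the GENCODE gene for Tlr2, 5 inside for Tlr1 and at its edge for Tlr9. The PU.1 core lies at -23 to -18 in Tlr1, and at -112 to -107 and 12 to 17 in Tlr9. A second Tlr1 entry and the entries of Tlr6 and Myd88 held neither motif. Of 32851 promoters of 300 bases, 28.3% held GAGGAA on either strand and 8.46% the NF-kB consensus. These matches describe letters in a window and were not tested as binding sites.

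Tlr4, the receptor for bacterial lipopolysaccharide, works with Ly96, which forms the ligand pocket, and with Cd14, which hands the ligand over. Tlr4 (ENSMUSG00000039005, chr4:66827584-66930284, plus strand) was at 1.83, 1.34 and 1.67 RPKM in control, 1.58, 1.78 and 1.69 in p53mut, 1.16, 1.48 and 1.87 in NrasG12D, and 1.15, 1.40, 1.01 and 1.22 in NPmut libraries. NPmut levels sat at the low end, with NPmut 2 inside the control range, and the log2 fold change of -0.31 was not called (SE 0.21, edgeR adjusted p = 0.374). Ly96 (ENSMUSG00000025779, chr1:16688051-16709611, plus strand) had 2 to 41 counts a library, its levels overlapped in all groups, and its log2 fold change of 0.12 had a SE of 0.53 (edgeR adjusted p = 0.914). The sign of this difference was not fixed, at -0.23 without control 2 and -0.07 without NPmut 2.

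Cd14 (ENSMUSG00000051439) divided the NPmut mice. It was at 1.23, 0.901 and 1.16 RPKM in control, 0.475, 2.07 and 0.829 in p53mut, 0.744, 0.299 and 0.380 in NrasG12D, and 8.88, 10.9, 0.340 and 4.36 in NPmut libraries. NPmut 1, 2 and 4 were above every library of the other groups, while NPmut 3, with 11 counts, was below every control library. The log2 fold change from control, 2.62 (SE 0.84), was the largest point estimate of the 10 genes but was not called (edgeR adjusted p = 0.0662, higher in 3 of 4 mice). Without NPmut 3 it was 3.02 and called (adjusted p = 0.00162), and DESeq2 called it in all libraries (adjusted p = 0.0239), within a range of 0.00162 to 0.325 over all alternatives. NPmut 3 also had the lowest Tlr2 and Tlr1 of its group and the highest Tlr7 and Tlr9. Each NPmut mouse is set against the control mean in the plot of single mice.

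**Figure D3:**
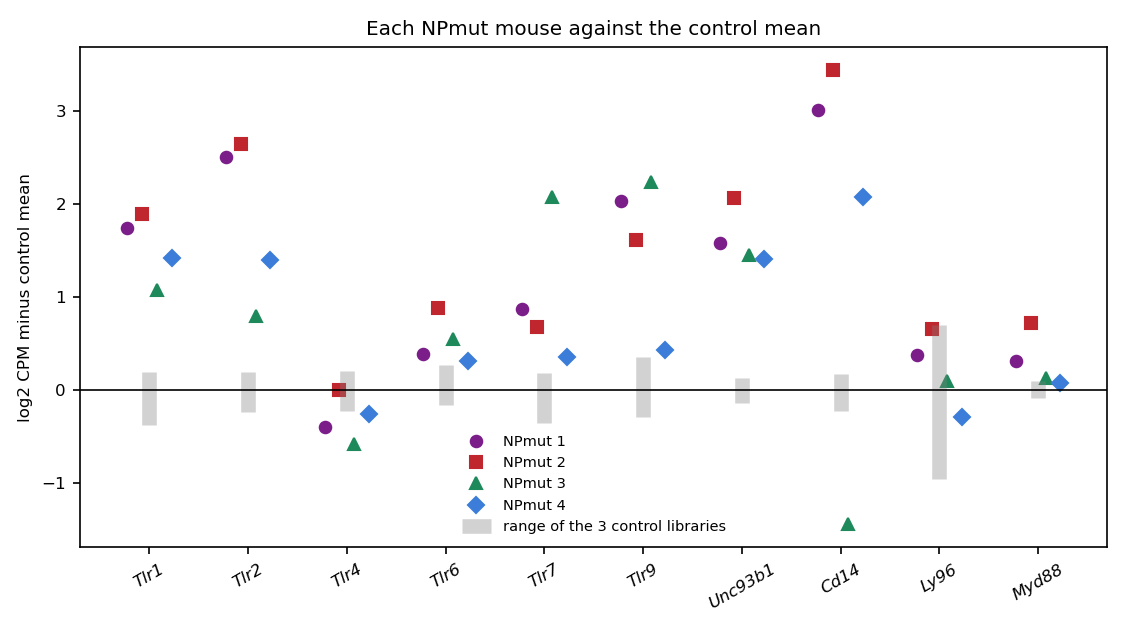
Difference of each NPmut mouse from the control mean in log2 CPM (vertical axis) for each of the 10 genes, with a marker per mouse and grey bars for the range of the 3 control libraries. For Unc93b1 the mice lie between 1.40 and 2.06, whereas for Cd14 NPmut 3 lies at -1.45 and the other mice between 2.07 and 3.44.

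Unc93b1 (ENSMUSG00000036908, chr19:3935186-3949340, plus strand), the chaperone of the endosomal receptors, had the smallest adjusted p of the 10 genes in NPmut against control. It was at 36.5, 38.5 and 33.6 RPKM in control, 31.6, 49.5 and 29.0 in p53mut, 38.9, 44.0 and 47.0 in NrasG12D, and 103, 131, 95.0 and 86.8 in NPmut libraries. The lowest NPmut library was far above every other library, and the remaining groups overlapped except that all NrasG12D libraries were slightly above control. The log2 fold change of NPmut from control was 1.64 (SE 0.20, edgeR adjusted p = 0.000327, higher in 4 of 4 mice). It was called under all 18 alternatives, with fold changes of 1.47 to 2.23 and adjusted p of 1.22e-32 to 0.00441.

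Tlr9, the endosomal receptor for DNA rich in unmethylated CpG (ENSMUSG00000045322, chr9:106222598-106226883, plus strand), was at 0.596, 0.790 and 0.516 RPKM in control, 0.280, 0.801 and 0.637 in p53mut, 0.590, 1.12 and 1.19 in NrasG12D, and 2.55, 1.72, 2.94 and 0.777 in NPmut libraries. NPmut 1, 2 and 3 were above every other library, whereas NPmut 4 was inside the control range in RPKM and just above it after TMM scaling. Its log2 fold change from control was 1.76 (SE 0.44, edgeR adjusted p = 0.0193). The call was lost without control 1 (adjusted p = 0.0692) or control 3 (0.0924) and with background reads as a covariate (0.0595), in a range of 1.16e-05 to 0.0924 over all alternatives. Tlr7, the endosomal receptor for single-stranded RNA (ENSMUSG00000044583, chrX:167304929-167330558, minus strand), was at 0.624, 0.413 and 0.640 RPKM in control, 0.569, 0.916 and 1.03 in p53mut, 1.26, 2.35 and 1.48 in NrasG12D, and 0.981, 0.774, 2.31 and 0.643 in NPmut libraries. NrasG12D libraries were all above control and p53mut, and in NPmut only NPmut 3 reached their range. The log2 fold change of NPmut from control, 1.17 (SE 0.41), was not called (edgeR adjusted p = 0.0823), but it was without NPmut 4 (adjusted p = 0.0386) by DESeq2 (0.0358), with the replicate block (0.0342) and with no filter on low counts (0.00639), out of 0.00639 to 0.225 over all alternatives.

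Myd88 (ENSMUSG00000032508, chr9:119335934-119341411, minus strand), the adaptor below most TLRs and the interleukin-1 receptor, was nearly level. It was at 10.2, 10.7 and 9.95 RPKM in control, 12.7, 10.3 and 10.6 in p53mut, 10.7, 11.2 and 11.5 in NrasG12D, and 12.2, 14.7, 10.8 and 9.88 in NPmut libraries. All groups overlapped except that NrasG12D libraries were at or just above the highest control library, and the log2 fold change of NPmut from control was 0.33 (SE 0.15, edgeR adjusted p = 0.18). Its exons overlap those of Acaa1a on the opposite strand, with 7.42% of its stretches of 50 bases shared, and the strand setting of the counting is not given in the sources used here.

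The single mutants ask what either allele does alone after the same injections. In p53mut against control cells edgeR called 0 of the 10 genes and 0% of all genes, the unadjusted p was under 0.05 for 0 of the 10, and DESeq2 called 0 of them. Fitted on these 2 groups only, blocked by replicate number, edgeR again called 0 of the 10, and 16 genes in all. The median log2 fold change of the 10 genes was 0.11, against 0 over all genes. In NrasG12D against control cells edgeR called 0 of the 10 and 0.00562% of all genes, which is 1 gene, while Tlr7 alone had an unadjusted p under 0.05 and was called by DESeq2, beside 9.1% and 0.433% of all genes. Tlr7 had a log2 fold change of 1.64 (SE 0.43, edgeR adjusted p = 0.216, higher in 3 of 3 mice). Its adjusted p was 0.0288 by DESeq2 and 0.0257 with only these 2 groups in the fit, and ran from 0.000906 to 0.629 over all alternatives. Cd14 lay below control in all 3 NrasG12D mice, with a log2 fold change of -1.16 that was not called (SE 0.96, edgeR adjusted p = 0.791). The median of the 10 genes was 0.21, against -0.02 over all genes.

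Set against each single mutant, which asks what differs once either allele is already present, NPmut cells had 3 called genes of 10 in both cases, all higher. Against NrasG12D, where 1.84% of all genes were called higher, these were, as log2 fold changes, Tlr2 with 1.85 (SE 0.40, adjusted p = 0.0118), Unc93b1 with 1.35 (SE 0.20, adjusted p = 0.00134) and Cd14 with 3.78 (SE 0.92, adjusted p = 0.0245). The Cd14 groups overlapped through NPmut 3. Tlr7 was not called, with a log2 fold change of -0.47 (adjusted p = 0.493). Only Unc93b1 was called without NrasG12D 1 or NrasG12D 2, and Cd14 was not called without NrasG12D 3 (adjusted p = 0.101) or NPmut 2 (0.0621) either. Nor was it with no filter on low counts (0.104), with the replicate block (0.0679) or with only the compared groups (0.0644), where Tlr2 was lost too (0.0538). Over all alternatives the adjusted p of Cd14 ran from 0.000422 to 0.116. Without NPmut 4 the count was 4, with Tlr9 added. Against p53mut, where 2.11% of all genes were called higher, the called genes were Tlr2 with 1.89 (SE 0.40, adjusted p = 0.00941), Tlr9 with 1.87 (SE 0.45, adjusted p = 0.016) and Unc93b1 with 1.59 (SE 0.20, adjusted p = 0.000475). Only Unc93b1 was called without p53mut 1 or p53mut 3, while without p53mut 2 Tlr1 was called too, and without NPmut 3 or by DESeq2 both Tlr1 and Cd14. With only the compared groups Unc93b1 alone was called, not Tlr2 (0.0538) or Tlr9 (0.0689), and Tlr2 was not called with background reads as a covariate (0.107). The medians of the 10 genes were 0.81 against NrasG12D and 1.38 against p53mut, beside 0.04 and 0.02 over all genes.

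The interaction, NPmut minus p53mut minus NrasG12D plus control on the log2 scale, asks whether the compound mutant departs from the sum of both single changes. Of the 10 genes 1 was called, Unc93b1, at 1.30 (SE 0.28, edgeR adjusted p = 0.0373), beside 0.393% of all genes called higher and 1.28% called in either direction. By edgeR the other 9 were not called, among them Cd14 at 3.71 (SE 1.27, adjusted p = 0.169), Tlr2 at 1.70 (SE 0.57, adjusted p = 0.157) and Tlr7 at -1.08 (SE 0.58, adjusted p = 0.383). Tlr2 was called by DESeq2 (adjusted p = 0.0465) and with no filter on low counts. The call of Unc93b1 was lost without any single control library, without p53mut 1 or 3, without any single NrasG12D library and without NPmut 1, at 1.13 to 1.36 and adjusted p of 0.0558 to 0.121. Without NPmut 3 the count was 3, with Tlr2 and Cd14 added. The median of the 10 genes was 1.26, against 0.05 over all genes.

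Of the 6 remaining mouse TLRs 5 were tested, and Tlr11 was too low, with at most 8 counts. Tlr13, an endosomal receptor for bacterial ribosomal RNA, was at 0.110, 0.0290 and 0.0379 RPKM in control, 0.174, 0.102 and 0.139 in p53mut, 0.136, 0.105 and 0.122 in NrasG12D, and 0.489, 0.423, 0.498 and 0.351 in NPmut libraries. Tlr12, which recognises profilin of protozoa, was at 0.317, 0.255 and 0.240 RPKM in control, 0.448, 0.900 and 1.36 in p53mut, 0.480, 1.18 and 0.829 in NrasG12D, and 0.961, 0.897, 1.37 and 0.801 in NPmut libraries. Tlr13 was highest in NPmut without overlap, whereas Tlr12 was lowest in control and similar in the 3 mutant groups. Both rose in NPmut against control cells, Tlr13 by 2.98 (SE 0.48, edgeR adjusted p = 0.00148) and Tlr12 by 2.00 (SE 0.42, adjusted p = 0.00756) on the log2 scale. By edgeR Tlr12 was not called in p53mut at 1.76 (adjusted p = 1) or in NrasG12D at 1.65 (adjusted p = 0.221). In NrasG12D it was called by DESeq2 (0.0419) and with no filter on low counts (0.03), out of 0.03 to 0.641 over all alternatives. Tlr3, the receptor for double-stranded RNA, Tlr5, that for flagellin, and Tlr8, a relative of Tlr7, had log2 fold changes of 1.92, 1.67 and 1.21 in NPmut against control and were not called (adjusted p = 0.109, 0.0941 and 0.176), though Tlr3 was with the replicate block (0.0337) and with no filter (0.0177). Tlr3 exons overlap the antisense gene Gm45542. Against NrasG12D cells Tlr5 at 2.53 (adjusted p = 0.0272), Tlr8 at 2.40 (0.0228) and Tlr13 at 1.92 (0.0139) were called, while against p53mut cells Tlr13 at 1.74 (0.0199) was called and Tlr5 at 1.83 (0.0823) and Tlr8 at 1.25 (0.18) were not, tests that were not repeated without single libraries. The 5 tested genes had a median of 1.92 in NPmut against control.

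The other accessory proteins gave 2 called genes of 8, both higher, with a median log2 fold change of 0.57 in NPmut against control, beside 2.27% of all genes called higher and 3.71% lower. Ly86, which pairs with the Tlr4 relative Cd180, rose from 5.09 ± 0.61 RPKM in control (n = 3) to 20.9 ± 7.94 RPKM in NPmut (n = 4), or by 2.16 on the log2 scale (SE 0.34, edgeR adjusted p = 0.0017). Lgmn, a protease of endolysosomes that takes part in Tlr9 processing, had 2.12 (SE 0.55, edgeR adjusted p = 0.0226). The Lgmn call was lost without any single control library or NPmut 1, at 1.88 to 2.31 and adjusted p of 0.0564 to 0.0935. Of the other TIR adaptors 4 of 5 were tested and 0 called by edgeR or DESeq2, with a median of 0.42. Of these Ticam2 at 0.68 (adjusted p = 0.0345) and Pik3ap1 at 0.72 (0.00581), named after their values were seen, passed the threshold of adjusted p and missed that of fold change. Of 21 signal transducers 1 was called higher and 1 lower, beside the same shares of all genes, with a median of 0.06. Irf5, a transcription factor activated downstream of Myd88, rose from 3.67 ± 0.227 RPKM in control (n = 3) to 15.4 ± 2.84 RPKM in NPmut (n = 4), by 2.19 on the log2 scale (SE 0.23, edgeR adjusted p = 0.000105). Irf7, which drives type I interferon genes below Tlr7 and Tlr9, was at 2.88 ± 0.998 RPKM in control, 8.54 ± 1.58 RPKM in NrasG12D (n = 3) and 1.33 ± 0.309 RPKM in NPmut. It fell by 1.01 in NPmut against control (SE 0.29, edgeR adjusted p = 0.0361), a call that was lost without control 2 (-0.74), control 3 (-0.95), NPmut 2 (-0.95) or NPmut 4 (-0.91), with no filter on low counts (-0.96), with the replicate block (-0.87) and with sex as a term (-0.88).

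Of 12 inhibitors of TLR signaling 1 was called higher and 1 lower in NPmut against control, and 10 were not called, with a median of 0.18, beside 2.27% and 3.71% of all genes. Tnfaip3, which edits ubiquitin chains to end NF-kB signaling, had a log2 fold change of 2.01 (SE 0.46, edgeR adjusted p = 0.0167), and Il1rl1, the interleukin-33 receptor, -1.55 (SE 0.41, edgeR adjusted p = 0.0303). Tnfaip3 ran from 2.02 to 11.9 RPKM in NPmut and from 1.46 to 2.22 RPKM in control, so these groups overlapped in RPKM. The Tnfaip3 call was lost without any single control library (adjusted p of 0.0565 to 0.0692), and the Il1rl1 call without any single control library, NPmut 1 or NPmut 4 (0.0521 to 0.103). NF-kB subunits and targets, the output end of the pathway, had 8 of 15 tested genes called higher and 0 lower, beside 2.27% and 3.71% of all genes. Their median was 1.85, and DESeq2 and unadjusted p gave 0 lower too. Of all genes DESeq2 called 2.8% higher, and 25.6% had an unadjusted p under 0.05 in either direction. Nfkbia, the inhibitor of NF-kB that NF-kB itself induces, was at 9.79 ± 1.48 RPKM in control (n = 3) and 35.7 ± 6.36 RPKM in NPmut (n = 4), and rose by 1.99 on the log2 scale (SE 0.19, edgeR adjusted p = 6.08e-05). The cytokine gene Tnf rose by 2.40 (SE 0.38, adjusted p = 0.00136), the subunit gene Rel by 1.10 (SE 0.23, adjusted p = 0.00756), Nfkbiz by 1.95 (SE 0.43, adjusted p = 0.0131) and the chemokine gene Ccl3 by 3.05 (SE 0.70, adjusted p = 0.0139). Ccl3 ran from 1.4 to 21.8 RPKM in NPmut and from 0.897 to 2.32 RPKM in control, so these groups overlapped. For Nfkbia, Tnf, Rel and Nfkbiz every NPmut library lay above every control library. Rel was below the fold threshold without NPmut 1 (0.92) or NPmut 4 (0.99). The calls of Nfkbiz and Ccl3 were lost without control 2 (adjusted p = 0.0507 and 0.061) or control 3 (0.0587 for both). With only NPmut and control libraries in the fit, Lgmn, Irf7, Tnfaip3, Il1rl1, Nfkbiz and Ccl3 were not called (adjusted p of 0.0528 to 0.0751). The replicate block also took away the calls of Tnfaip3 (0.0681), Ccl3 (0.0629) and, by fold change, Rel (0.94), library totals that of Rel (0.99), and no filter those of Tnfaip3 (0.0507) and Il1rl1 (0.103). With background reads as a covariate Tnfaip3 and Nfkbiz turned sign, and Lgmn, Irf7, Il1rl1, Tnf, Rel and Ccl3 were not called.

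Interferon-stimulated genes were followed because pI:pC induces interferon. Their summed level was 56.1, 60.7 and 65.1 RPKM in control, 57.1, 56.4 and 68.3 in p53mut, 101, 116 and 142 in NrasG12D, and 47.6, 51.3, 40.3 and 36.7 in NPmut libraries. NrasG12D libraries were all above and NPmut libraries all below control. In NPmut against control cells 8 of 20 were called lower, beside 3.71% of all genes, with a median of -0.91. In NrasG12D against control the median was 1.35, with 0 called by edgeR, 18 at an unadjusted p under 0.05 and 8 by DESeq2, beside 1620 and 77 of all 17795 genes. The most abundant gene was Bst2 at a mean of 16.5 RPKM, and Ifit3 was at 0 in some libraries. Tlr7 was highest in the same NrasG12D group, and the part of interferon in its level was not tested.

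Summed markers of monocytes and of dendritic cells were highest in the NPmut libraries, as was the sum of the TLR genes. A lineage-negative sort is meant to remove mature cells, and how far it did so here was not tested. Summed over the 10 genes, levels were 55.5, 55.9 and 52.1 RPKM in control, 50.6, 69.6 and 47.8 in p53mut, 57.2, 64.7 and 68.5 in NrasG12D, and 142, 175, 118 and 111 in NPmut libraries. Most of this sum was Unc93b1, at a mean of 58.8 RPKM over the libraries and at 103, 131, 95.0 and 86.8 RPKM in NPmut. The sum of 11 monocyte and macrophage markers was 140, 157 and 141 RPKM in control, 128, 219 and 118 in p53mut, 118, 144 and 182 in NrasG12D, and 418, 527, 369 and 303 in NPmut libraries. In both sums the NPmut libraries were highest and, outside NPmut, p53mut 2 was the highest library. Of the monocyte markers 7 of 11 were called higher in NPmut against control, beside 2.27% of all genes, with a median of 1.42, F13a1 as the most abundant at 82.2 RPKM, and Fcgr1 at 0 in NrasG12D 1 and NPmut 4. The sum of 12 dendritic cell markers was 32.3, 37.5 and 34.4 RPKM in control, 29.7, 47.2 and 29.9 in p53mut, 46.8, 65.2 and 54.6 in NrasG12D, and 147, 154, 109 and 86.8 in NPmut libraries. Of 10 tested, 7 were called higher and 1 lower in NPmut against control, beside 2.27% and 3.71% of all genes, with a median of 2.19, Irf8 as the most abundant at 34.8 RPKM, and Siglech, Xcr1, Batf3 and Cd209a at 0 in some libraries. Most of this sum in NPmut was Irf8, Cd74 and H2-Ab1, at means of 65.2, 33.1 and 14.7 RPKM. The other markers had lower means there, up to 5.44 RPKM for H2-Aa. Zbtb46 was at 2.54 ± 0.649 RPKM in control and 1.11 ± 0.436 RPKM in NPmut. The part of monocytic or dendritic cells in the TLR differences was not tested.

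**Figure D4:**
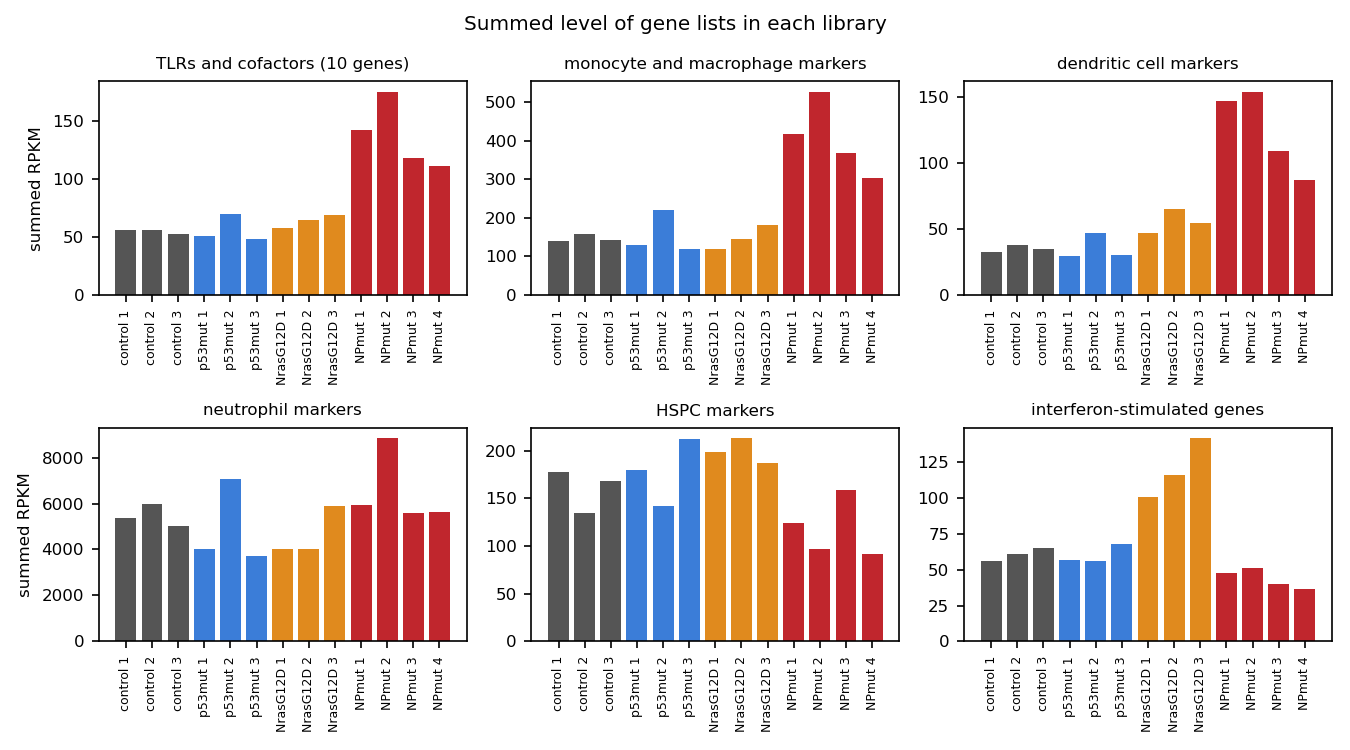
Summed level in RPKM (vertical axes, from 0) of the 10 TLR genes and of 5 other gene lists in each of the 13 libraries, colored by genotype. The 4 NPmut bars are the highest for the TLR genes (111 to 175 RPKM), monocyte and macrophage markers (303 to 527 RPKM) and dendritic cell markers (86.8 to 154 RPKM), and the lowest for interferon-stimulated genes (36.7 to 51.3 RPKM).

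Other marker lists went different ways, as the plot of summed levels shows for some of them. HSPC markers summed to 178, 135 and 168 RPKM in control, 180, 142 and 212 in p53mut, 199, 213 and 187 in NrasG12D, and 124, 96.4, 159 and 91.6 in NPmut libraries. In NPmut against control 1 of 10 was called higher and 6 lower, beside 2.27% and 3.71% of all genes, with a median of -1.58. None of the HSPC markers was at 0 in any library, and Kit, the marker of the sort, was the most abundant at a mean of 57.2 RPKM over all libraries. Kit was at 62.8 ± 4.75 RPKM in control (n = 3) and 40.1 ± 8.9 RPKM in NPmut (n = 4), with every NPmut library below every control library. Its log2 fold change of -0.54 (SE 0.15, edgeR adjusted p = 0.0329) passed the threshold of adjusted p and missed that of fold change. Erythroid and megakaryocyte markers summed to 287, 376 and 411 RPKM in control, 372, 283 and 485 in p53mut, 348, 297 and 275 in NrasG12D, and 93.9, 39.4, 208 and 178 in NPmut libraries, with 5 of 10 called lower, beside 3.71% of all genes, and a median of -1.57. NPmut 3, the mouse with low Cd14, had the highest HSPC and erythroid sums of its group. The sum of neutrophil markers, led by Mpo at 3260 RPKM, overlapped between groups at 5040 to 5970 RPKM in control and 5600 to 8850 RPKM in NPmut libraries, with 1 of 11 tested genes called higher, beside 2.27% of all genes, and a median of 0.30. Most of this sum came from Mpo, Elane, Ctsg and Prtn3, at 3250, 1190, 549 and 290 RPKM in control. Ltf, Camp and Mmp8, at 8.83, 9.01 and 1.08 RPKM in control, hardly entered it, so the sum says little of them. B cell markers (median -0.92, 6 of 10 tested) and T and NK cell markers (median -0.52, 6 of 10 tested) had 0 called by edgeR. At an unadjusted p under 0.05 were 2 of each list, beside 25.6% of all genes, and DESeq2 called 0 and 1, beside 1323 of all 17795 genes. Of the mast cell and basophil markers 1 of 6 tested was called lower, beside 3.71% of all genes, with a median of -0.38. In p53mut and NrasG12D against control, edgeR called 0 genes of every list named here, beside 0 and 1 of all genes. DESeq2 called 0 of them in p53mut. In NrasG12D it called the dendritic cell markers H2-Aa (1.41, adjusted p = 0.0419) and Cd74 (1.55, 0.0186), the HSPC marker Flt3 (1.14, 0.0392) and the transducer Irf7 (1.60, 0.000317), named after their values were seen, beside the TLRs and interferon-stimulated genes above. At an unadjusted p under 0.05, beside 9.1% of all genes in NrasG12D, were 5 of 10 dendritic cell, 4 of 6 B cell, 3 of 10 HSPC, 2 of 11 neutrophil and 2 of 10 erythroid and megakaryocyte markers, and 1 each of the monocyte, T and NK cell and mast cell lists. Of the pathway lists these were 5 of 21 transducers, 2 of 12 inhibitors, 1 other TLR, 1 TIR adaptor, 1 NF-kB gene and 0 accessory proteins. In p53mut they were 2 other TLRs and 2 NF-kB genes, beside 412 of 17795 genes. The part of any cell type in the TLR values was not tested.

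Background reads and sex differed between libraries as well. Reads on olfactory and vomeronasal receptor genes, which marrow is not known to express, made up 139, 198 and 107 CPM (counts scaled to the same total) in control, 104, 144 and 62 in p53mut, 46.5, 39.2 and 44.5 in NrasG12D, and 18.2, 47.8, 59.8 and 18.3 in NPmut libraries. NPmut 1 and NPmut 4 had the least, and control and NPmut libraries did not overlap. With this level as a covariate 1 of the 10 genes was called in NPmut against control, Unc93b1, at a log2 fold change of 2.23 (adjusted p = 0.00441). Of all genes the main fit called 404 higher and 661 lower, and the fit with the covariate 339 higher and 232 lower. Tlr1, Tlr2 and Tlr9 then had 2.11, 1.95 and 2.48 and were not called (adjusted p = 0.143, 0.13 and 0.0595), while over all alternatives Tlr2 ran from 4.48e-14 to 0.13. Of the other pathway genes named, Tlr13, Ly86, Irf5 and Nfkbia were called in the same fit. Tlr12 (2.03), Lgmn (2.55), Irf7 (-1.16), Il1rl1 (-1.63), Tnf (1.58), Rel (0.18) and Ccl3 (1.74) were not, and Tnfaip3 (-0.12) and Nfkbiz (-0.19) turned sign. By their Y-linked genes control 1, p53mut 1, NrasG12D 2, NPmut 3 and NPmut 4 were male. Tlr7, Tlr8 and Tlr13 lie on the X chromosome, and with sex in the model the log2 fold change of Tlr7 was 1.09 in NPmut and 1.61 in NrasG12D against control, neither called.

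For each of the 4 called genes, the tested genes with the most similar pattern over the 13 libraries were found by the root mean square difference of log2 CPM, each gene being centred on its control mean. Nearest to Unc93b1 were Csf1r, the receptor that monocytes need to grow (0.16), Fcer1g, a signaling chain of Fc receptors (0.17), and Irf8, a transcription factor of monocyte and dendritic cell development (0.17). Nearest to Tlr2 were Nfil3 (0.34), Ctsh (0.36) and Tgfbi (0.37), and nearest to Tlr1 were Ap1s2 (0.36), AI839979 (0.36) and Pkib (0.37). For Tlr9 they were Ctnnd2 (0.42), Mpeg1 (0.45) and Met (0.45). Counting noise enters this measure, and counts a library were 13 to 191 for Tlr9, 5 to 90 for Tlr1 and 1281 to 11580 for Unc93b1. Its size is therefore not compared between the called genes. Csf1r, Irf8 and Mpeg1 are also in the marker lists above.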

How the data were processed

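Raw counts per gene for 13 libraries, deposited by the authors in 1 table, were used as given. The submitters' processing notes name STAR 2.6.1d, GRCm38.p6, R 3.6.1 and DESeq2 1.26.0, and the counting program and strand setting are not given in the sources used here. Of 54838 identifiers 54809 are in GENCODE M21 (GRCm38), which gave symbols, positions and exon lengths, and 29 with 0.0032% of the counts are not. Columns were matched to mice by the code that labels and column names share.

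Tests used edgeR 4.0.16 under R 4.3.3: a quasi-likelihood fit with robust estimation on all 13 libraries, a mean per group, TMM factors, filterByExpr by group (17795 of 44944 genes with a count) and Benjamini-Hochberg adjustment over all genes tested. Standard errors are the log2 fold change over the square root of F. RPKM used library totals and exon lengths, and CPM the TMM-scaled totals, with a prior count of 2 on the log2 scale. Tables and plots were made in Python 3.11.15 with pandas 2.3.3 and matplotlib 3.10.9. Replicate libraries differed by more than sampling noise, so the fit across libraries sets the precision. The procedure was tested on simulated data.

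The 10 genes and the other 15 lists were chosen with earlier results of these data known, and 1 gene of the monocyte and macrophage list is not reported here and was left out of its counts and sums. Named genes were all 10 members, every other TLR, at most 5 called genes of each pathway list in NPmut against control by adjusted p, and the 3 genes most like each called member. Other settings tried were library totals, RLE factors, DESeq2 1.42.0, no filter and a filter of at least 10 counts in every library, the replicate number as a block, sex as a term, background reads as a covariate, only the compared groups, and each library left out. After the data were seen, 4 combinations of the handling of library sizes and of robust dispersion were compared, with an earlier count of calls known, the first was kept, and recomputed library sizes and dispersion without the robust option were added as alternatives. Libraries with the same number were checked as pairs: deviations from the group means correlated at 0.166, 0.163 and 0.152 for control with p53mut and not in every pair of other groups. A block with these 2 groups alone was therefore added, also after the data were seen, and neither the labels nor the paper call the number a batch.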

Additional observations from a re-analysis of the deposited data

Results flagged for a closer look

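The interaction, the test of whether NPmut cells depart from the sum of both single-mutant changes, was called by edgeR for 8 of the 55 tested genes named and checked, beside 1.28% of all genes. DESeq2 called more of the 55, among them also Tlr2, Ly86, Il1rl1, Nfkbiz and Ccl3, beside 615 of all genes where edgeR called 228. Many of the 55 were named because they, or genes they resemble, were called in NPmut against control, and the same libraries enter the interaction, so the choice of genes favors a call. Unc93b1 stood at 1.3 on the log2 scale (edgeR adjusted p = 0.0373), Irf5 at 1.49 (0.0358), Nfkbia at 1.17 (0.0455), Tnf at 2.78 (0.0256), Pkib at 1.73 (0.0454), Irf8 at 1.49 (0.0373) and F13a1 at 1.46 (0.0387), all above the sum, and Irf7 at -2.4 (0.0144) below it. Only Irf7 kept its call whichever single library was left out. Of 13 libraries left out in turn, the call was lost for 10 by Nfkbia and Irf8, for 9 by Unc93b1, Irf5, Pkib and F13a1 and for 7 by Tnf, with adjusted p up to 0.137. Over all genes 70 were called higher and 158 lower. With single libraries left out these ran from 6 higher and 59 lower (without control 2) to 204 higher and 327 lower (without NPmut 3). Nfkbia also lost its call with sex as a term. Irf7 was at 8.54 RPKM in NrasG12D and 1.33 RPKM in NPmut libraries. The injections of pI:pC and the stage of disease cannot be told apart from the NPmut genotype in this test. The same 55 genes were searched for a library far from the others of its group, which was done only in the 4 NPmut libraries. Among them 2 were found, Ap1s2 with a ratio of gap to range of 0.84 and Pkib with 0.873, both through a high NPmut 2, where chance alone gives about 1 in 20 groups.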

How the results depend on the processing

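In NPmut against control the count of called genes among the 10, which was 4, became 1 with background reads as a covariate and ran from 2 to 5 when single libraries were left out. In p53mut against control it was 0 under all 18 alternatives run, including the block with control and p53mut libraries alone. In NrasG12D against control it was 0, but 1 (Tlr7) with DESeq2, with no filter on low counts and with only the compared groups, and 0 without any single library. In NPmut against NrasG12D the count of 3 became 4 with DESeq2 (Tlr1 added), 2 with at least 10 counts in every library and 1 with only the compared groups. It ran from 1 to 4 without single libraries. With no filter it was 3, with Tlr9 in place of Cd14. In NPmut against p53mut 3 became 5 with DESeq2 and 1 with only the compared groups and ran from 1 to 5. The interaction count of 1 became 2 with DESeq2 and with no filter, and ran from 0 to 3. The replicate block gave 5, 0, 0, 3, 3 and 1 in these comparisons, in the same order, with Tlr7 as the added gene in NPmut against control and Tlr9 in place of Cd14 in NPmut against NrasG12D. Fits on fewer groups or libraries hold fewer samples. With at least 10 counts in every library Tlr1, Cd14 and Ly96 were not tested, as their lowest libraries had 5, 8 and 2 counts. The cause of the other shifts was not tested. Signs turned for Ly96 in NPmut against control, at -0.01 with library totals, -0.52 with the covariate and -0.23 to 0.54 without single libraries, and with the covariate for Tnfaip3 at -0.12 and Nfkbiz at -0.19. Unc93b1 was called in every alternative of the 3 comparisons of NPmut with another group. Recomputed library sizes and dispersion without the robust option, added after the data were seen, gave the same counts in all 6 comparisons. Depth limits the low genes: Tlr1 had 5 to 90, Ly96 2 to 41 and Cd14 8 to 550 counts a library.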
